A study of Cucumis sativus var. sativus with 11 samples.

Results

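A set of 21 cucumber genes was lower in inhibited ovaries than in ovaries of every other group of the study, while the means of those other groups stayed within a set limit of each other. The 21 genes were chosen from the measured values themselves, out of 23248 genes in the tables. They needed a mean of at least 50 normalized counts at anthesis, a mean in inhibited ovaries at least 0.7 below each other group mean on the log2(normalized count + 1) scale, a range of the other 3 group means under 0.8 on that scale, and both inhibited libraries below all 9 others. The difference between inhibited ovaries and the other groups is therefore what defined the set. It is given here as a description, with no test.

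RNA was sequenced from individual ovaries of Elem Female, a gynoecious, non-parthenocarpic cucumber line grown in a net-house, whose genotype all groups share. Inhibited ovaries were pollinated while older fruits were present on the plant and were taken 1 day after pollination (n = 2). Pollinated ovaries received pollen and were taken 1 day after it (n = 3), unpollinated ovaries were taken 1 day after anthesis without pollen (n = 3), and anthesis ovaries were taken on the day of flower opening (n = 3). No label says that the ovaries came from separate plants, so spreads and p-values measure variation between these ovaries.

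A gynoecious plant bears female flowers, and a non-parthenocarpic one needs pollination for its ovaries to grow into fruits. Older fruits on a cucumber plant can hold back younger ovaries, an effect known as fruit dominance or first-fruit inhibition, in which the younger ovary stays small or aborts. Pollen had reached the inhibited as well as the pollinated ovaries here, and only the inhibited ones are labelled as having older fruits on the plant. Unpollinated ovaries on plants with older fruits were not analysed here.

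The genes are named by the identifiers in the files. A lookup in the RefSeq annotation of Cucumber_9930_V3, which lists 23999 genes, matched 0 of the 23248 identifiers, so no product, sequence, position or pathway is given for any of them, and markers of ovary tissue or of other cell types could not be looked up. In whole ovaries, fewer cells of a type that expresses a gene and less of its RNA per cell cannot be told apart.

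Libraries held 18158218 to 26456643 reads assigned to genes. Reads assigned to no single gene made up 16.8 to 24.8% of inhibited replicate 2, pollinated replicates 1 and 3 and unpollinated replicate 3, and 10.8 to 13.3% of the other 7 libraries. Both inhibited libraries and unpollinated replicates 2 and 3 carried 1 form of the second index sequence, and the remaining 7 libraries the other form. All libraries but anthesis replicate 3 were run on the same lane.

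Most genes with both inhibited libraries at the bottom stood only slightly below the rest. Of 16062 genes with the anthesis minimum, 792 had both inhibited libraries below all other 9 (4.93%), and their median gap was 0.24 on the log2 scale, where the gap is the lowest of the other group means less the inhibited mean. The range limit left 760 of them, and the gap minimum left 21. Another 45 genes that failed only the gap minimum had gaps of 0.5 or more. Among the 21 genes the gap ran from 0.70 to 1.21 with a median of 0.98.

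**Figure D1:**
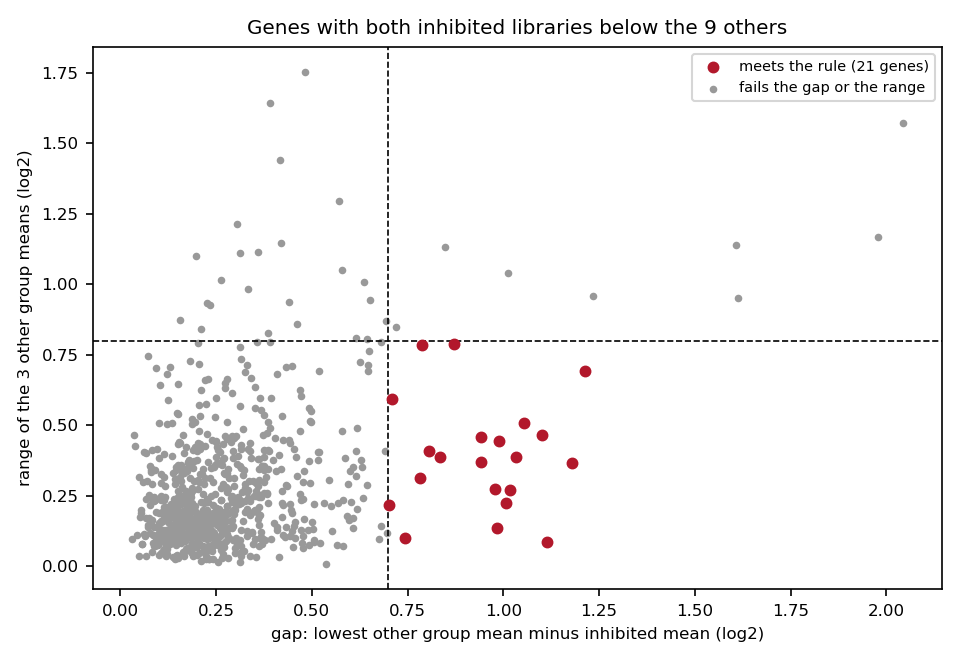
Each point is a gene with an anthesis mean of at least 50 normalized counts and both inhibited libraries below the other 9 (792 genes). The horizontal axis is the gap between inhibited ovaries and the lowest other group mean and the vertical axis the range of the other group means, both in log2 units, with dashed lines at 0.7 and 0.8. The 21 genes of the set lie in the lower right field, and 8 genes lie above it because the other groups differed too much.

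In inhibited ovaries the 21 genes stood at 30.9 to 61.1% of their pollinated mean, 33.4 to 58.4% of their unpollinated mean and 24.6 to 63.8% of their anthesis mean. The median difference on the log2(normalized count + 1) scale was -1.07 against pollinated, -1.21 against unpollinated and -1.07 against anthesis ovaries. Over all 16062 genes with the anthesis minimum the same medians were -0.01, 0.01 and -0.01. In log2 terms 14 of the 21 were at least 1 unit lower than in pollinated ovaries, 16 than in unpollinated and 12 than in anthesis ovaries. All of these figures follow from the choice of the genes. The 3 comparisons share the same inhibited libraries and do not count as separate evidence.

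**Figure D2:**
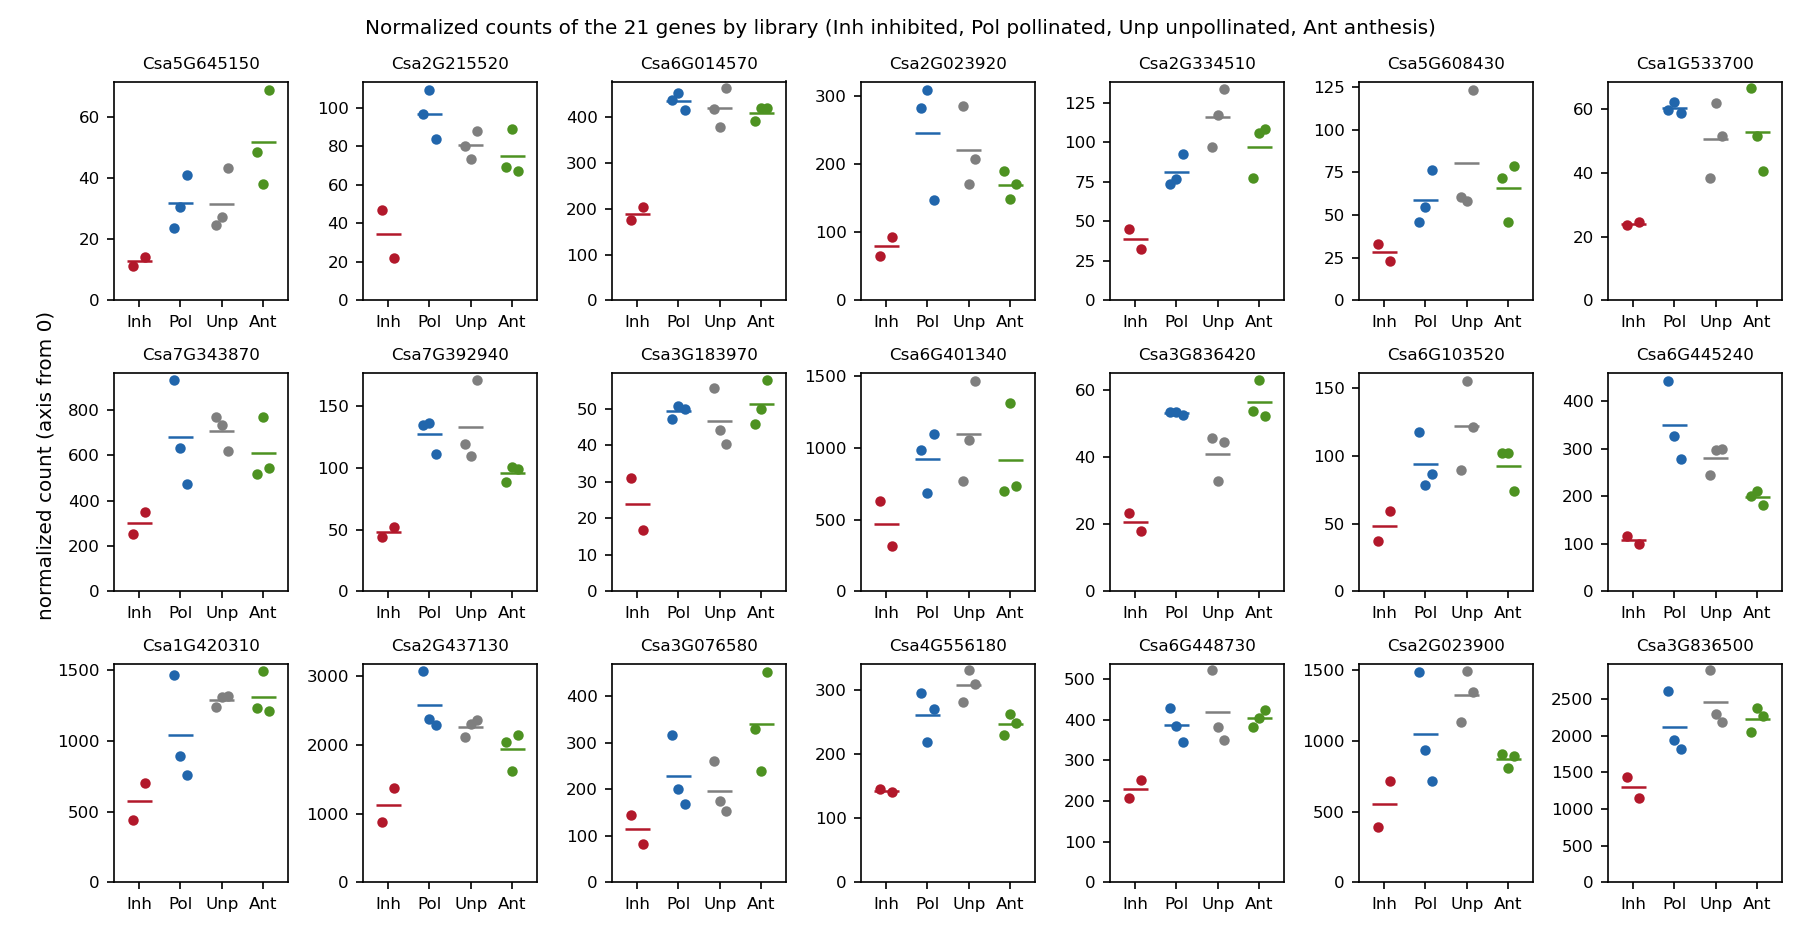
Normalized counts of the 21 genes, 1 panel per gene in the order of the gap, with linear axes from 0. Points are single ovaries and lines group means for inhibited (n = 2), pollinated, unpollinated and anthesis ovaries (n = 3 each). In every panel both inhibited points lie below the other 9, by the rule and the higher inhibited point stands at 54.0% of the lowest other point in Csa6G014570 and at 99.9% in Csa2G023900.

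Csa6G014570 was the most clear-cut of the 21 genes. It had 175 and 204 normalized counts in the inhibited libraries, against 438, 451 and 415 in pollinated, 416, 377 and 463 in unpollinated and 391, 419 and 418 in anthesis ovaries. Its other group means differed by 0.09 on the log2 scale, the smallest range of the set, and its higher inhibited value was 54.0% of its lowest other value, the widest separation of the set. The fitted log2 fold change was -1.20 ± 0.12 against pollinated, -1.15 ± 0.12 against unpollinated and -1.11 ± 0.12 against anthesis ovaries (edgeR, ± SE).

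The largest gap belonged to Csa5G645150, a gene with few reads. Its levels were 11.3 and 14.3 normalized counts in the inhibited libraries, against 23.6, 30.7 and 41.0 in pollinated, 24.5, 27.2 and 43.4 in unpollinated and 48.5, 38.2 and 68.8 in anthesis ovaries. The inhibited values rested on 12 and 11 reads. Anthesis ovaries had the highest mean of this gene, and pollinated and unpollinated ovaries lay between them and the inhibited ones. Its range of the other group means, 0.69, came close to the limit.

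Csa2G215520 had the second largest gap and the largest difference between the inhibited libraries. It had 46.9 and 22.1 normalized counts there, against 97.0, 109 and 83.8 in pollinated, 80.0, 73.2 and 87.9 in unpollinated and 69.1, 88.9 and 67.0 in anthesis ovaries. Inhibited replicate 2 was the lower of the pair, by 1.055 on the log2 scale, and replicate 1 was at 70.1% of the lowest other library.

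Csa2G023920 had the fourth largest gap. Its levels were 65.7 and 93.5 normalized counts in inhibited ovaries, against 282, 309 and 147 in pollinated, 285, 172 and 207 in unpollinated and 190.3, 148 and 172 in anthesis ovaries. Pollinated replicate 3 lay just below the lowest anthesis library, and the other pollinated libraries lay above all 3 of them.

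The genes with the highest levels showed smaller gaps. Csa3G836500 had 1440.0 and 1153 normalized counts in inhibited ovaries, against 2608, 1946 and 1816 in pollinated, 2898, 2296 and 2183 in unpollinated and 2048, 2379.5 and 2271 in anthesis ovaries. With a gap of 0.70 it was also the gene nearest to the threshold. Csa2G437130 stood at 886 and 1369.7 normalized counts in inhibited ovaries, against 3076, 2373 and 2289 in pollinated, 2112, 2301 and 2369 in unpollinated and 2049.9, 1623 and 2149 at anthesis. The lowest value outside the inhibited group was that of anthesis replicate 2 for this gene, so the inhibited libraries came nearest to an anthesis ovary.

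Csa6G448730 had nearly level group means outside the inhibited group, with a range of 0.10 on the log2 scale. It had 208 and 252 normalized counts in inhibited ovaries, against 429, 384 and 345 in pollinated, 522, 383 and 351 in unpollinated and 381, 403 and 424 in anthesis ovaries. Its gap was 0.74, and the fitted log2 fold changes ran from -0.86 ± 0.17 against unpollinated to -0.75 ± 0.17 against pollinated ovaries (edgeR, ± SE).

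In Csa6G401340 and Csa2G023900 the inhibited libraries differed strongly from each other. Csa6G401340 had 632 and 313 normalized counts in inhibited ovaries, against 986, 683 and 1093 in pollinated, 772, 1053 and 1467 in unpollinated and 700.1, 1309.7 and 736.0 in anthesis ovaries. Csa2G023900 had 393 and 719 in inhibited ovaries, against 1490.3, 933 and 720.2 in pollinated, 1134, 1493 and 1345 in unpollinated and 909, 812 and 895 in anthesis ovaries. Inhibited replicate 2 and pollinated replicate 3 were nearly equal for Csa2G023900, which met the rule on this point by 0.0019 on the log2 scale.

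Just outside the gap minimum lay Csa6G013900 and Csa2G363020, with gaps of 0.696 and 0.690. Csa6G013900 had 492 and 849 normalized counts in inhibited ovaries, against 1267, 1024 and 1132 in pollinated, 942, 1199 and 1072 in unpollinated and 1029, 976 and 1146 in anthesis ovaries. Csa2G363020 had 269 and 332 normalized counts in inhibited ovaries, against 650.1, 704 and 580.3 in pollinated, 502, 465 and 484 in unpollinated and 489, 498 and 541 in anthesis ovaries. Just inside it lay Csa3G836500 and Csa2G023900, with gaps of 0.70 and 0.71.

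The range limit kept out 8 genes that met every other condition, some with wider gaps than any of the 21. Their gaps ran from 0.72 to 2.04. Csa5G099500, with a gap of 1.61 and a range of 0.95, had 18.8 and 20.8 normalized counts in inhibited ovaries, against 183, 92.0 and 107 in pollinated, 56.6, 134 and 97.0 in unpollinated and 62.8, 60.4 and 64.2 in anthesis ovaries. Csa5G099500 was named after its values were seen. Below the anthesis minimum, 22 genes met all other conditions, and 4 genes failed only because 1 inhibited library was not below all others.

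The other 12 genes of the set fall into groups by level. Among those under 100 normalized counts at anthesis, Csa2G334510 averaged 38.8 ± 8.91 in inhibited ovaries (SD, n = 2), against 80.9 ± 10.4 in pollinated, 116 ± 18.2 in unpollinated and 97.1 ± 17.3 in anthesis ovaries (SD, n = 3 each). Csa7G392940 averaged 48.0 ± 5.52 in inhibited ovaries (SD, n = 2), against 127 ± 13.7 in pollinated, 133 ± 32.7 in unpollinated and 96.1 ± 6.33 in anthesis ovaries (SD, n = 3 each). Csa3G836420 averaged 20.8 ± 3.74 in inhibited ovaries (SD, n = 2), against 53.2 ± 0.561 in pollinated, 41.1 ± 7.16 in unpollinated and 56.4 ± 5.83 in anthesis ovaries (SD, n = 3 each). In these genes inhibited ovaries stood at 36.9 to 49.96% of the anthesis mean.

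Csa1G533700 was the steadiest between the inhibited libraries among genes of that level, at 23.5 and 24.7 normalized counts, against pollinated ovaries at 58.8 to 62.3, unpollinated ovaries at 38.4 to 61.9 and anthesis ovaries at 40.4 to 66.4. Csa3G183970 had 31.0 and 16.9 in inhibited ovaries, against pollinated ovaries at 47.2 to 50.8, unpollinated ovaries at 40.4 to 55.5 and anthesis ovaries at 45.8 to 57.8. Csa5G608430 had 32.9 and 23.4 in inhibited ovaries, against pollinated ovaries at 46.0 to 76.7, unpollinated ovaries at 58.2 to 123 and anthesis ovaries at 46.2 to 78.9. For Csa6G103520, 37.5 and 59.7 in inhibited ovaries stood against pollinated ovaries at 78.6 to 118, unpollinated ovaries at 89.6 to 156 and anthesis ovaries at 74.3 to 102. In all 4 genes the other groups overlapped one another.

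At middle levels, Csa6G445240 was the member with the widest range of the other group means, at 0.79. It had 116 and 99.97 normalized counts in inhibited ovaries, against pollinated ovaries at 278 to 444, unpollinated ovaries at 245 to 299 and anthesis ovaries at 183 to 212. In Csa3G076580 anthesis ovaries had the highest mean and not the lowest of the 3 other groups, with 146 and 83.1 in inhibited ovaries, against pollinated ovaries at 168 to 317, unpollinated ovaries at 153 to 260.4 and anthesis ovaries at 239.9 to 452. Relative to anthesis, the means after 1 day outside the inhibited group were thus higher for Csa6G445240 and lower for Csa3G076580. For Csa3G076580 the pollinated and the unpollinated libraries overlapped those at anthesis.

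Csa4G556180 had the closest pair of inhibited values in the set on the log2 scale, at 146 and 140.2 normalized counts, against pollinated ovaries at 218 to 295, unpollinated ovaries at 281 to 331 and anthesis ovaries at 229.8 to 262. Csa7G343870 had 254 and 349 in inhibited ovaries, against pollinated ovaries at 472 to 931, unpollinated ovaries at 617 to 767 and anthesis ovaries at 517 to 769. Csa1G420310, the third gene above 1000 normalized counts at anthesis, had 443 and 705 in inhibited ovaries, against pollinated ovaries at 755 to 1467, unpollinated ovaries at 1239 to 1316 and anthesis ovaries at 1209 to 1493. Its pollinated libraries thus reached down almost to the higher inhibited one, and the unpollinated and anthesis libraries did not.

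Gaps were smaller at higher levels. The 9 genes at 50 to under 100 normalized counts at anthesis had gaps of 0.94 to 1.21, the 9 at 100 to under 1000 had 0.71 to 1.11, and the 3 at 1000 or more had 0.70 to 0.83. The set lay low in the distribution of levels, with a median anthesis level at the 18.1 percentile of genes with the anthesis minimum. The rule used both the gap and the anthesis level, and gaps by level are not given for all genes. The part of the choice in this trend and in the low level of the set was not tested. Reads per gene in the inhibited libraries ran from 11 to 1534.

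Among the other groups, the 21 genes had no common order. The median range of the other 3 group means was 0.39 on the log2 scale, against 0.34 over all 16062 genes with the anthesis minimum. The rule limited this range for the 21 genes and not for all genes, and levels were not matched. Whether the set was steadier across those groups than genes in general was therefore not tested. The highest of the 3 means was in unpollinated ovaries for 10 genes, in pollinated for 6 and in anthesis ovaries for 5. The lowest was in anthesis ovaries for 11 genes and in pollinated and unpollinated ovaries for 5 each. In the fit of all libraries, 1 of the 21 was called between pollinated and anthesis ovaries, where 16.4% of all genes tested were called, and it was higher in pollinated ovaries (7.39% of all genes). For unpollinated against anthesis ovaries 2 were called (35.7% of all genes), 1 higher (17.6%) and 1 lower (18.1%), and for pollinated against unpollinated ovaries 0 (30.3% of all genes; edgeR adjusted p under 0.05 in each). The range limit of the rule keeps these counts low. The genes called were Csa6G445240, higher than at anthesis in both groups, and Csa3G076580, lower than at anthesis in unpollinated ovaries, so the description of the set as lowered only in inhibited ovaries holds less well for those genes.

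Both inhibited libraries were low over the set. Relative to the mean of the 9 other libraries, the median of the 21 genes was -1.16 in inhibited replicate 1 and -1.12 in inhibited replicate 2 on the log2 scale. It lay between -0.06 and 0.20 in the pollinated, between 0.01 and 0.14 in the unpollinated and between -0.11 and 0.01 in the anthesis libraries. Replicate 1 was the lower of the inhibited libraries in 11 genes and replicate 2 in 10. Single genes differed between the inhibited libraries by up to 1.055.

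**Figure D3:**
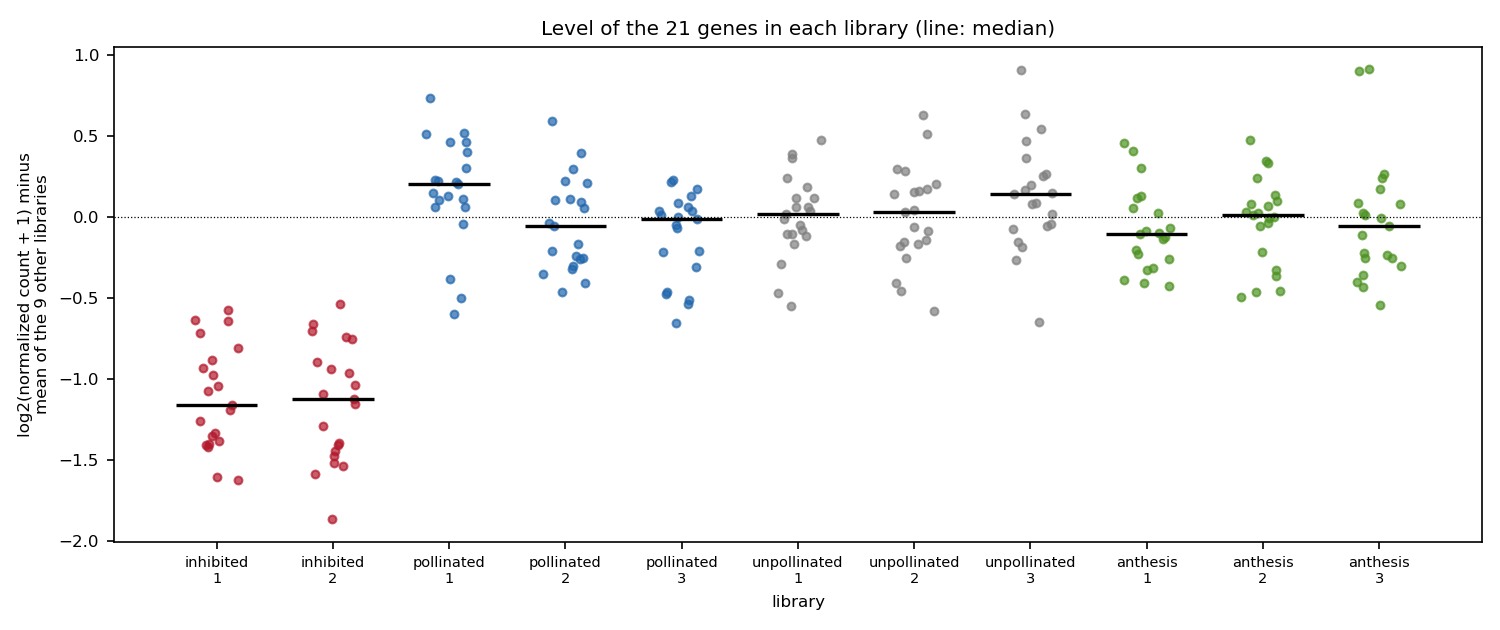
Level of each of the 21 genes in each library, as log2(normalized count + 1) less the mean of that gene over the 9 libraries of the other groups; points are genes and black lines medians. The medians of the inhibited libraries lie at -1.16 and -1.12, and those of the other 9 libraries between -0.11 and 0.20.

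Library properties are given beside these medians. Inhibited replicate 1 had 11.8% of reads assigned to no single gene and replicate 2 had 24.8%, with the medians of -1.16 and -1.12 given above. In unpollinated ovaries the median was 0.01 in replicate 1, which carries the other index form, and 0.03 and 0.14 in replicates 2 and 3, which carry the form of the inhibited libraries. Against those replicates alone the median difference of the inhibited libraries was -1.23. No pollinated or anthesis library carried that index form, so index and group cannot be told apart in these comparisons.

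The inhibited libraries differed from each other more in these genes than in others of like anthesis level. Their median absolute difference on the log2 scale was 0.46 for the 9 genes of 50 to under 100 normalized counts, against 0.33 for all 1307 genes of that level. It was 0.46 against 0.18 at 100 to under 1000 and 0.63 against 0.14 at 1000 or more. In the other groups the comparison varied with level. At 50 to under 100 the median within-group range of the set was 0.33 in pollinated ovaries, against 0.51 for all genes of that level, 0.63 against 0.49 in unpollinated and 0.46 against 0.47 in anthesis ovaries. At 100 to under 1000 it was 0.68 against 0.25 in pollinated, 0.40 against 0.24 in unpollinated and 0.22 against 0.23 in anthesis ovaries. At 1000 or more, with 3 genes of the set, it was 0.52 against 0.17 in pollinated, 0.17 against 0.14 in unpollinated and 0.30 against 0.16 in anthesis ovaries. Levels were matched at anthesis only, and by the rule the genes of the set stood lower than that in the inhibited libraries. The part of this spread in that lower level or in the choice of the genes was not tested.

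The rule was then applied with 1 inhibited library left out, so that the genes found could be read in a library that took no part in the choice. Without replicate 1, 50 genes met the rule, and in replicate 1 26 of these (52%) lay below all 9 other libraries, where 12.3% of all genes with the anthesis minimum did. Their median level in replicate 1 was -0.30 relative to the lowest other group mean on the log2 scale, against 0.17 over all genes. Without replicate 2, 54 genes met the rule, and 38 of them (70.4%) lay below all 9 others in replicate 2, where 12.7% of all genes did, with a median of -0.39 against 0.18. The same 9 other libraries served in the choice and in the reading, so the shares are given as a description. The remaining 24 and 16 genes did not lie below all 9 in the library left out, and the highest stood 1.70 above its lowest other group mean in replicate 2.

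**Figure D4:**
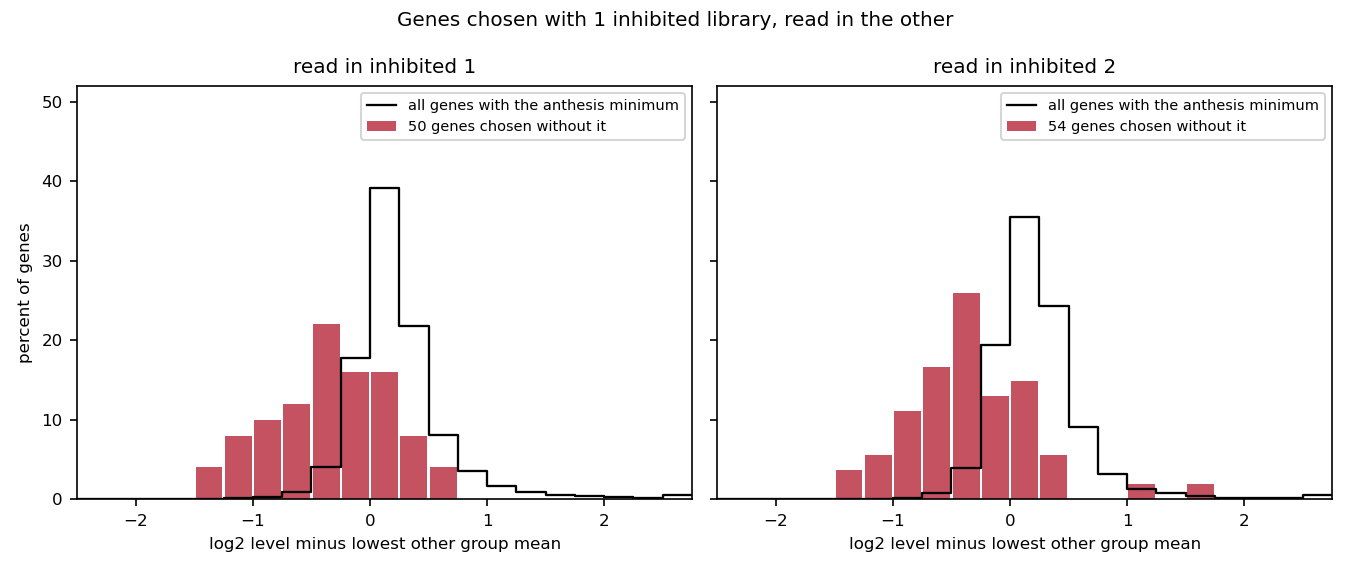
Genes that met the rule without inhibited replicate 1 (left, 50 genes) or without inhibited replicate 2 (right, 54 genes), read in the library left out. Bars give the percent of these genes, and the black outline the percent of all 16062 genes with the anthesis minimum, by the log2 level in that library less the lowest other group mean (the outermost bins hold all values beyond them). The bars lie to the left of the outline, with medians of -0.30 and -0.39, and reach well above 0.

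When 1 library of another group was left out, 18 to 23 genes met the rule. In the library left out, all of these genes, or all but 1, were higher than in both inhibited libraries. Over all genes with the anthesis minimum, 36.6 to 39.1% were higher there than in both inhibited libraries. The same inhibited libraries served in the choice, which required them to be low, and in this reading. The high shares therefore follow largely from the choice and are given as a description.

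In the fit of all libraries, 14 of the 21 genes were called lower in inhibited than in pollinated ovaries (edgeR adjusted p under 0.05; 4.81% of all 18679 genes tested). Against unpollinated ovaries 18 were called lower (9.83% of all genes), and against anthesis ovaries 15 (3.36%). All 3 comparisons called 13 of the 21 (0.487% of all genes), and Csa3G183970, with 33 and 13 reads in the inhibited libraries, was called in none of them. None of the 21 was called higher in inhibited ovaries, where 6.54% of all genes were against pollinated, 9.81% against unpollinated and 4% against anthesis ovaries. In either direction 11.3%, 19.6% and 7.37% of all genes were called in those comparisons. The rule used these contrasts, and nothing is read from the counts. All 21 genes passed the filter on low counts.

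These counts depended on single libraries, and the counts over all genes moved too. A fit without 1 of the inhibited replicates kept a single inhibited library, with the spread taken from the other groups. Without inhibited replicate 1, 6 of the 21 were called against pollinated (239 of all genes, in place of 898), 11 against unpollinated (1248 in place of 1836) and 4 against anthesis ovaries (111 in place of 628). Against anthesis, 5 of the 21 were called without inhibited replicate 2 (443 of all genes), 8 without anthesis replicate 1 (257) and 4 without anthesis replicate 3 (126). The second index form was then added as a term, which is estimated from the unpollinated libraries alone. That fit called 5 of the 21 lower against pollinated (151 of all genes) and 18 against unpollinated ovaries (1617). Against anthesis ovaries it called 0 of the 21 and 2 of all genes lower. Leaving out the 4 libraries above 15% unassigned, a choice made after seeing the data, kept a single inhibited and a single pollinated library. No calls are given for it. The median log2 difference of the 21 genes was then -1.16 against pollinated, -1.13 against unpollinated and -1.11 against anthesis ovaries. With the unassigned share as a covariate, 9 of the 21 were called against anthesis ovaries (310 of all genes).

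The same thresholds turned round gave 24 genes raised in inhibited ovaries, against the 21 lowered. Both inhibited libraries lay above all other 9 for 736 genes (4.58%), against 792 below. By the same thresholds 131 genes were lowered only in pollinated, 126 only in unpollinated and 14 only in anthesis ovaries, where 3 libraries and not 2 had to lie apart. Raised only in these groups were 21, 140 and 52 genes. The minimum stayed on the anthesis mean throughout, so for anthesis ovaries it bore on the lowered group itself and that count is not alike.

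Members of the set with close identifiers were looked at last. Csa2G023900 and Csa2G023920 are separated by a single identifier in the table, Csa2G023910, which did not meet the rule. It had 376 and 597 normalized counts in inhibited ovaries, against 1453, 1082 and 524 in pollinated, 1316, 1579 and 1664 in unpollinated and 682, 671 and 669 in anthesis ovaries. Its gap was 0.51, and inhibited replicate 2 stood above pollinated replicate 3. In all 3 genes pollinated replicate 3 was the lowest pollinated library and inhibited replicate 1 the lowest of all 11.

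Csa3G836420 and Csa3G836500 have 7 identifiers between them in the table, and none of these is a member. The 5 of them with the anthesis minimum had gaps of -0.34 to 0.12, and none had both inhibited libraries below all others. No other pair of the 21 had fewer than 52 identifiers between its members. The files give no positions, and whether genes with consecutive identifiers are similar enough in sequence to share reads was not tested. Csa2G023910 was named after its values were seen.

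**Figure D5:**
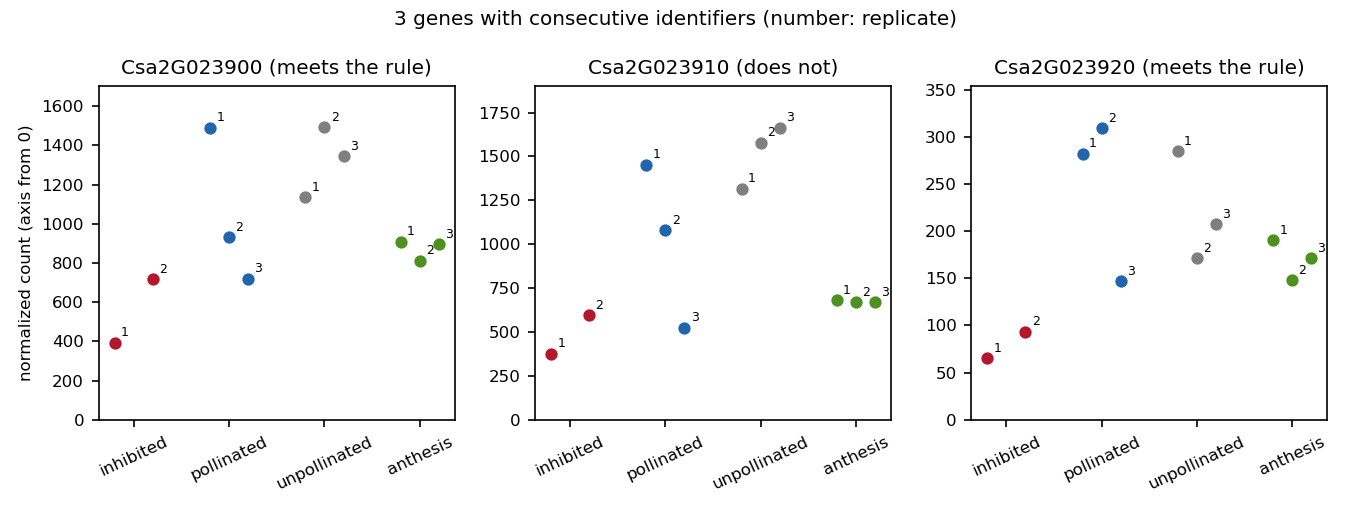
Normalized counts of Csa2G023900, Csa2G023910 and Csa2G023920 in each library, with linear axes from 0 and the replicate number beside each point. Both inhibited points are the lowest for the first and the last gene, while for Csa2G023910 inhibited replicate 2 at 597 lies above pollinated replicate 3 at 524.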

How the data were processed

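RNA-seq libraries of 11 individual cucumber ovaries were used. Read counts per gene were deposited by the authors; HTSeq 0.6.1p1, STAR 2.5.0a and DESeq2 appear in the submitters' processing notes, with no roles. For genome build, annotation and strand, nothing is given in the sources used here, and genes that overlap or closely resemble each other may share reads. The second table deposited by the authors holds normalized counts, a signal equal to the counts divided by 1 factor per library (largest relative difference 5.18e-10). The 5 lines that name no gene were left out; they hold 10.8 to 24.8% of a library's reads. No library pair within a group was a duplicate (chi-square per gene 10.05 or more). The inhibited pair differed most by this measure, at 51.3, and the other pairs reached at most 34.9.

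The rule was applied to log2(normalized count + 1). Counts were filtered with filterByExpr (18679 genes kept), scaled by TMM and fitted together by quasi-likelihood, with 1 mean for each group (edgeR 4.0.16, R 4.3.3), with Benjamini-Hochberg adjustment over all genes and a threshold of 0.05. The SE is the log2 fold change divided by the square root of F. Both procedures were run on simulated data to check the code. For the rule the simulated spread was smaller than that of the data, so that run gives no rate of false members. DESeq2 1.42.0, other thresholds, scalings and sets of libraries were tried as alternatives. The genes, the rule and the comparisons were chosen with earlier results of these data known. Genes given in full were the 4 with the largest gap and the 2 each with the highest anthesis level, smallest range, largest difference between inhibited libraries and smallest gap, with the 2 just outside. The other genes of the set follow for completeness.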

Additional observations from a re-analysis of the deposited data

How the results depend on the processing

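The number of genes that met the rule was 21. It stayed within 1.5 times of this under 15 of 21 alternatives, among them TMM scaling, other pseudocounts and any 1 library of the other groups left out. It was 43 with no anthesis minimum, 66 with a gap of 0.5 and 8 with a gap of 1.0. Leaving out 1 library gave 18 to 54, the high end without an inhibited library; 16 of the 21 were among the 50 genes found without inhibited replicate 1 and 16 among the 54 found without replicate 2. Leaving out the 4 libraries above 15% unassigned, an alternative chosen after seeing the data, gave 57, of which 13 were among the 21. That alternative kept a single inhibited and a single pollinated library.

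The sign of the median difference of the 21 genes is fixed by the rule. When 1 library was left out the median ran from -1.25 to -1.10 against pollinated, from -1.25 to -1.08 against unpollinated and from -1.11 to -0.98 against anthesis ovaries.

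Over all genes, 628 were called lower in inhibited than in anthesis ovaries, 898 than in pollinated and 1836 than in unpollinated ovaries. Leaving out 1 library gave 111 to 849, 239 to 864 and 891 to 2177. With the second index form as a term the first was 2 and the second 151. Without the 4 libraries the counts were 389, 346 and 1054. Against anthesis the count was 1184 with DESeq2 and 310 with the unassigned share as a covariate, against pollinated 524 with only the groups compared, and against unpollinated 1215 with only libraries of the same index form. The cause of these shifts was not tested. No paired analysis was possible because the labels give no replicate number that pairs libraries across groups. Depth limits the genes with few reads, the lowest of which had 11 and 12 in the inhibited libraries.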
